A study of Homo sapiens with 6 samples.

Results

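The AP-3 adaptor and Hermansky-Pudlak syndrome (HPS) genes are 10 genes of protein sorting towards melanosomes, measured here after siRNA knock-down of PIR in WM-266.4 melanoma cells. They were chosen by name, with earlier results of these data known, and AP3S1 was chosen for its steep fall with PIR siRNA. The values of these genes and of the comparisons below are therefore given as a description with no test. The array carried 25 probe sets annotated with these 10 genes, of 54675 in all, and 9 of the 10 genes had a probe set of their own, of 19775 such genes in the series. The 3 probe sets of AP3S2 are also annotated with the readthrough gene ARPIN-AP3S2, so AP3S2 is described through them and kept out of the gene counts.

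WM-266.4 is an established cell line from a human melanoma metastasis. Cells were transfected with 4 pooled siRNA duplexes against PIR (siPIR), with 4 pooled non-targeting duplexes (siCTR), or with the Oligofectamine reagent without oligonucleotide (NO), and were harvested 72 h later. Both siRNA groups received 200 pmol of siRNA, and all 3 groups came from the same cell line, seeded 24 h before transfection into plates and transfected without serum. RNA of 3 extractions was mixed for each group, and the target made from each mixture was hybridised to 2 oligonucleotide arrays (Affymetrix HG-U133 Plus 2), which read a transcript through sets of short probes. Each group is thus 1 RNA pool, the 2 arrays of a pool show hybridisation error only, and no difference between pools has a biological replicate behind it. Because each siRNA group was a pool of duplexes used at 1 dose, effects of single duplexes cannot be told apart.

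AP-3 is a heterotetrameric coat that buds vesicles from endosomes and loads them with cargo for lysosomes and related organelles, among them the melanosome, the pigment granule of melanocytes. Each AP-3 complex joins a delta and a beta chain, which are large, to a medium mu chain that reads tyrosine-based sorting signals and a small sigma chain that helps to read dileucine-based ones. BLOC-2 and BLOC-3, built from HPS proteins, act in the same route: BLOC-2 directs tubular carriers to the maturing melanosome, and BLOC-3 is the exchange factor of the GTPases RAB32 and RAB38. Inherited loss of AP3B1, AP3D1, HPS1, HPS3, HPS4 or HPS5 causes forms of Hermansky-Pudlak syndrome, with pale skin and hair and a bleeding tendency.

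The labels were checked first. PIR had array signals of 392 and 382 in siPIR, 13544 and 13179.9 in siCTR and 13990.2 and 14153 in NO, so the targeted transcript was 34.1-fold lower than in siCTR and 35.9-fold lower than in NO. Of 8 melanocyte lineage markers, 7 were measured, meaning that at least 1 pool mean was above 70.2, the median of all values. TYR, the enzyme that starts melanin synthesis and a cargo of AP-3, had pool means of 38990, 38340 and 35680 in siPIR, siCTR and NO, and MITF, the lineage's transcription factor, of 14340, 15110 and 16500. None of the 7 was called in any comparison by the 2-fold rule given below, and SOX10, a lineage factor, was the furthest from the controls at 0.32 and 0.55 on a log2 scale. Of the markers of other cell types, 3 of 7 fibroblast, 1 of 7 keratinocyte, 3 of 7 leukocyte and 2 of 7 endothelial genes were measured; the fibroblast markers DCN and THY1, the keratinocyte markers KRT5 and KRT14, the leukocyte marker PTPRC and the endothelial markers VWF and CDH5 were not. The summed fibroblast signal was 24044 and 23093 in siPIR, 14624 and 15843 in siCTR, and 12768 and 12678 in NO, nearly all of it from the collagen gene COL1A2 (0.64 and 0.91), while COL1A1 differed by -0.09 and 0.71 and LUM by -0.44 and -0.61, and its part in the results below was not tested. Of the other markers, KRT10 differed by -0.37 and -0.32, PECAM1 by 0.91 and -0.02 and KDR by 0.10 and -0.59. CD79A differed by 1.24 and -0.59. Its siCTR arrays read 5.7 and 136.0, and pairs of a siPIR and a siCTR array gave -1.18 to 3.66. CD14 differed by 0.88 and 1.64 and ITGAM by -0.40 and -1.33, both called against NO at dim signals. ITGAM counted as measured through NO alone, with siPIR and siCTR means of 45.9 and 60.0, so the filter favoured its call. For ITGAM, siCTR already differed from NO by -0.93. The signal ratio of 3' to 5' probes for ACTB, which rises as RNA degrades, was lower for siPIR (1.127 and 1.13) than for the controls (1.226 to 1.265), and its part was not tested either.

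Of the sigma chain genes, AP3S1 was lower in siPIR on its single probe set, and the AP3S2 probe sets did not share a direction. AP3S1 encodes sigma-3A, the small chain of AP-3. Its single probe set gave 1582 and 1424 signal units in siPIR, 7559.6 and 7220.3 in siCTR, and 7432 and 7509 in NO. The siPIR arrays lay far below all 4 control arrays, which stood close together. On the scale log2(signal + 5.4), on which all differences are given, AP3S1 differed by -2.29 from siCTR, or 4.91-fold, and the 4 pairings of a siPIR with a siCTR array gave -2.40 to -2.19, the kind of range given in parentheses below. From NO it differed by -2.31 (-2.39 to -2.23), or 4.96-fold. Since RNA was taken from whole cultures, fewer cells that carry a transcript and less of it per cell cannot be told apart. The non-targeting siRNA and the reagent alone differed by -0.02 (-0.06 to 0.02). Among the 8272 bright genes, those with a pool mean above 458.4 signal units, 6 had a more negative difference from siCTR than AP3S1 and 10 a more negative difference from NO. No other probe set of AP3S1 is on the array to set beside this value, and RefSeq lists 3 AP3S1 pseudogenes, none with a probe set of its own, whose transcripts this probe set might also bind.

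AP3S2 encodes sigma-3B, which can take the place of sigma-3A in the complex. The brightest of its 3 shared probe sets gave 2114 and 1726 in siPIR, 1730.5 and 1786 in siCTR, and 1933 and 1767 in NO. Its siPIR values spanned the whole range of the control arrays, and the difference was 0.12 from siCTR (-0.05 to 0.29) and 0.05 from NO (-0.16 to 0.26). The other AP3S2 probe sets differed from siCTR by -0.28 and 0.34 and from NO by -0.20 each. The first of these had siPIR below all 4 control arrays, at 456 and 508 against at least 549. The second had siPIR above both siCTR arrays and overlapping with NO. At the sigma position, then, the AP3S1 signal was more than 4-fold lower in the siPIR pool, while the AP3S2 probe sets differed from siCTR in both directions and none reached 2-fold. The measured probe sets of ARPIN, the upstream partner of the readthrough, differed from siCTR by -0.92 for the brightest and by -0.07 and -0.21 for the others, so a readthrough share of the AP3S2 signal cannot be told apart.

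**Figure D1:**
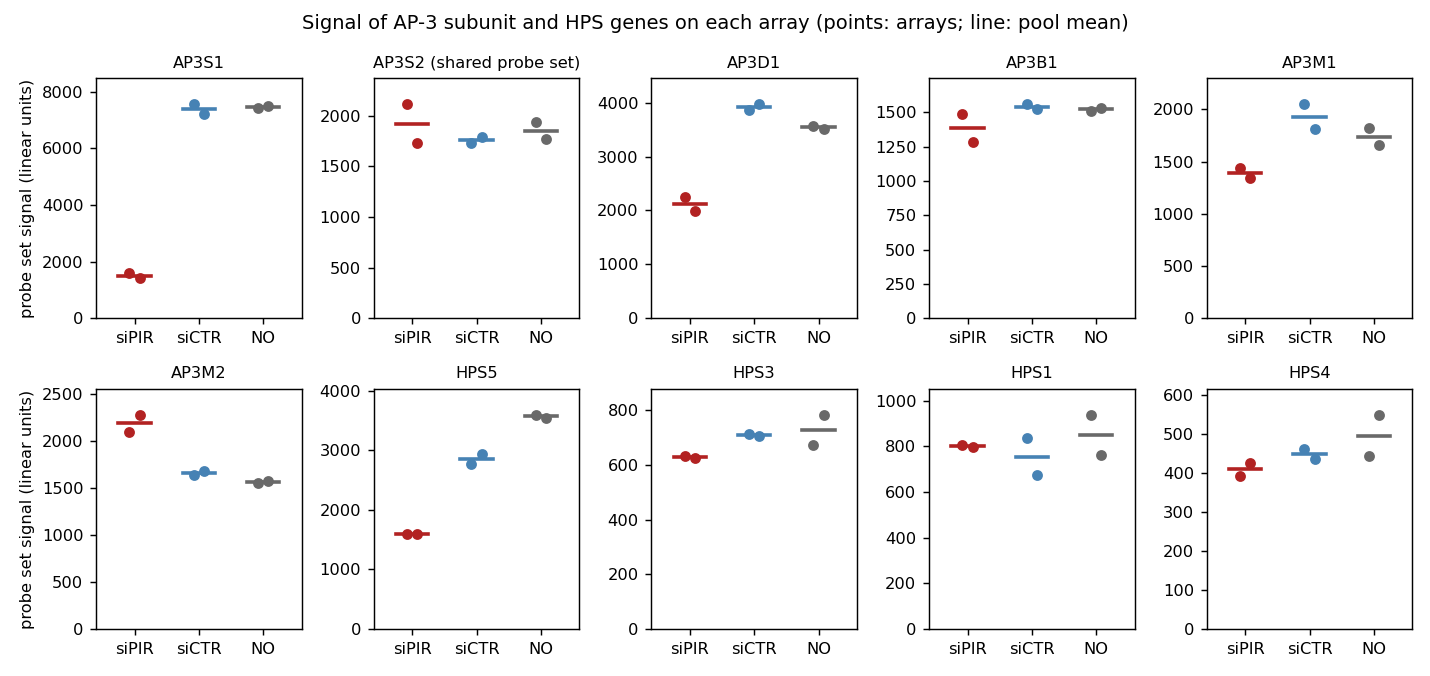
Probe set signal in linear units (y axis, from 0, a separate scale in each panel) on each of the 2 arrays of the siPIR, siCTR and NO pools for the brightest probe set of each of the 10 genes; points are arrays and lines pool means. The siPIR points lie clear below both controls for AP3S1 (1424 and 1582 against at least 7220.3), AP3D1 and HPS5, above them for AP3M2, and overlap with them for AP3S2 and HPS1.

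The large chains had lower signals in siPIR, to unequal degrees. AP3D1 encodes delta, the chain that all AP-3 complexes share, and is mutated in Hermansky-Pudlak syndrome with neurological disease. On the brightest AP3D1 probe set, signals were 2252 and 1980.4 in siPIR, 3870.2 and 3972 in siCTR, and 3572 and 3518.5 in NO. Every siPIR array was below every control array, with differences of -0.89 from siCTR (-1.0 to -0.78, 1.85-fold) and -0.75 from NO (-0.85 to -0.64, 1.68-fold), short of 2-fold. The second AP3D1 probe set gave 473 and 419.8 in siPIR against 770.2 and 799 in siCTR and 930.0 and 834 in NO, differences of -0.81 and -0.97. The third gave 208 and 237 against 342 and 383 in siCTR and 272 and 314 in NO, differences of -0.69 and -0.39. All 3 probe sets of AP3D1 thus placed the siPIR pool below both controls without overlap. AP3B1 encodes beta-3A, the ubiquitous beta chain. The brightest of its probe sets gave 1492 and 1281 in siPIR, 1560.4 and 1524 in siCTR, and 1512 and 1534 in NO, with differences of only -0.16 (-0.28 to -0.03) and -0.14 (-0.26 to -0.02). Its siPIR arrays differed from each other by more than the higher of them differed from any control array. The second AP3B1 probe set differed by -0.24 from siCTR and by -0.58 from NO, and by -0.34 between the controls. All probe sets of AP3D1 and AP3B1 carry the suffix _s_at, which marks probes that match more than a single transcript, often of the same gene. AP3B2, which encodes the neuronal beta chain, was not measured in any pool.

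The mu chains differed from the controls in opposite directions. AP3M1 encodes mu-3A, the ubiquitous form, and its brightest probe set gave 1443 and 1345 in siPIR, 2049.9 and 1812 in siCTR, and 1825 and 1654 in NO. Both siPIR arrays lay below all 4 control arrays, while the arrays of siCTR and NO overlapped, and the differences were -0.47 from siCTR (-0.61 to -0.33) and -0.32 from NO (-0.44 to -0.20). The second AP3M1 probe set gave -0.38 and -0.51, also with siPIR below all control arrays. AP3M2 encodes mu-3B, the form known from neurons. Its brightest probe set gave 2099 and 2283 in siPIR, 1638 and 1683 in siCTR, and 1558 and 1578 in NO, so the siPIR pool was the highest. The difference was 0.40 from siCTR (0.32 to 0.48, 1.32-fold) and 0.48 from NO (0.41 to 0.55, 1.39-fold). A much dimmer second probe set of AP3M2 overlapped between the pools, at -0.08 and -0.46, and the mean over both probe sets was 0.16 from siCTR and 0.01 from NO.

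BLOC-2 is built from HPS3, HPS5 and HPS6. HPS5 gave 1589 and 1600.1 in siPIR, 2777 and 2938 in siCTR, and 3597 and 3545 in NO, from a single probe set. The 3 pools were fully separated, with NO highest and siPIR lowest. HPS5 differed by -0.84 from siCTR (-0.88 to -0.79, 1.79-fold) and by -1.16 from NO (-1.18 to -1.14, 2.24-fold), and siCTR itself differed from NO by -0.32 (-0.37 to -0.27). Part of the distance between siPIR and NO was thus also present between the controls. HPS3 was nearly level by its brightest probe set, at 632 and 627 in siPIR, 714 and 706 in siCTR, and 672 and 784 in NO, differences of -0.17 and -0.20. Its second probe set, however, gave 0.08 and 0.19 with overlapping arrays, and the dimmest gave -0.43 and -0.96, so its probe sets did not share a sign. HPS6, which encodes the remaining subunit, differed by 0.29 and 0.26.

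The sequence before the transcription start is shown for AP3S1, the gene with the steepest difference, and for HPS5 and HPS3, subunits of the same complex with unequal differences. RefSeq windows were at hand for 6 of the 10 genes, and the 250 bases before the start, 5′ to 3′ on the gene's strand in build GRCh38.p14, were searched on both strands. The motifs were the E-box CACGTG and its 8-base form TCACGTGA, which contains it and is bound by MITF and TFE factors, the E-box CATGTG, the cyclic AMP response element TGACGTCA, and the GC box GGGCGG. Capitals mark matches to TCACGTGA, CATGTG, TGACGTCA and GGGCGG on either strand. The windows are chr5:115841685-115841934 on the plus strand for AP3S1, chr11:18322141-18322390 on the minus strand for HPS5, and chr3:149129388-149129637 on the plus strand for HPS3.
AP3S1: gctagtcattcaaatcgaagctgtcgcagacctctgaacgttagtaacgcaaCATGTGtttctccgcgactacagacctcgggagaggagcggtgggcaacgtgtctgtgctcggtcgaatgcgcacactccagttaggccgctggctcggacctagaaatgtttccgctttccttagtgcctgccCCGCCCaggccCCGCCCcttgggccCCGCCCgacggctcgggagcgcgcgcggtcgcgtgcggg
HPS5: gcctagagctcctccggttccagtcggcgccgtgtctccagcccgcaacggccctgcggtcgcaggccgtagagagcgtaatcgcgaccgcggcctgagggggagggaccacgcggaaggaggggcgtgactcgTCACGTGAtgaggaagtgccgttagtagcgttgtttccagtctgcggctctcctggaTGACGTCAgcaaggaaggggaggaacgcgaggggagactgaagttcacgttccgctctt
HPS3: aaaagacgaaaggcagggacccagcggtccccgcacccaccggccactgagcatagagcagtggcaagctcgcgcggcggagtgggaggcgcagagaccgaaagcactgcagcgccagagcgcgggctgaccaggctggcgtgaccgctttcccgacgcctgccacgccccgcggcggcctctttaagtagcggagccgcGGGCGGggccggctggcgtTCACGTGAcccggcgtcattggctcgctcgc
TCACGTGA was found 116 to 109 bases before the start of HPS5 and 31 to 24 bases before that of HPS3, and in 0.854% of all 35116 windows, which include several starts for some genes. CACGTG was found in the windows of the same genes and in 6.34% of all windows. TGACGTCA was found in HPS5, 59 to 52 bases before the start, in HPS4, and in 1.65% of all windows. The AP3S1 window shown, 1 of 3 for that gene, held CATGTG, which 9.42% of windows held, and 3 GC boxes, a motif in 42.6% of windows. Another AP3S1 window, chr5:115842237-115842486, held GC boxes but no CATGTG, so the matches depend on the start taken. HPS5 and HPS3 shared the 8-base E-box. From siCTR, HPS5 differed by -0.84 and the HPS3 probe sets by -0.43 to 0.08, and the part of the motif in these differences was not tested.

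BLOC-3 is the pair of HPS1 and HPS4. HPS1 gave 803.5 and 797 in siPIR, 836 and 674 in siCTR, and 937.5 and 759 in NO by its brightest probe set. The siPIR values lay inside the range of the controls, with differences of 0.09 and -0.08. The 5 HPS1 probe sets disagreed. One annotated with the suffix _x_at, which marks probes that may bind unrelated transcripts, differed by -0.50 and -0.54 without overlap. Others differed by 0.23 and -0.25 and by -0.13 and 0.27, and the dimmest, at 94.9 and 38.7 in siPIR, 21.8 and 19.4 in siCTR, and 69.0 and 81.5 in NO, by 1.36 and -0.27. HPS4 gave 392.5 and 427 in siPIR, 462 and 436 in siCTR, and 442 and 549 in NO. Its differences were -0.13 and -0.27, narrowly without overlap, whereas its other probe sets overlapped with at least siCTR. Neither BLOC-3 gene gave a direction that its probe sets shared in both comparisons.

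**Figure D2:**
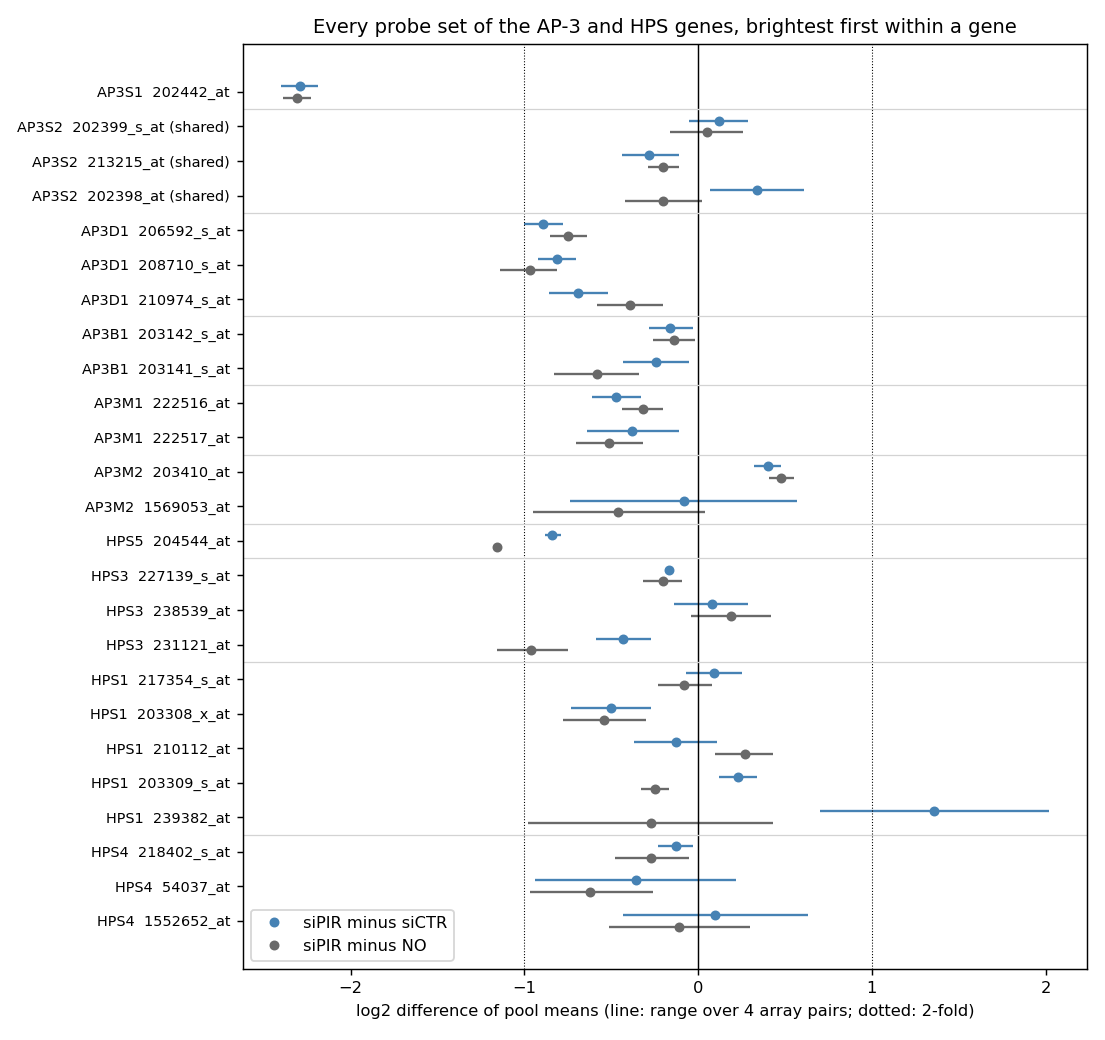
Log2 difference of pool means (x axis) between siPIR and siCTR (blue) or NO (grey) for all 25 probe sets, brightest first within a gene; lines span the 4 array pairs and dotted lines mark 2-fold. AP3S1 stands alone near -2.3, the 3 AP3D1 probe sets lie between -0.97 and -0.39, and the HPS1 probe sets spread from -0.54 to 1.36.

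To count genes, each was represented by its brightest own probe set, and a gene was called when its difference was at least 1 in size, which is 2-fold, and the arrays of the pools compared did not overlap. Against siCTR, 1 of the 9 measured genes was called lower, AP3S1, and 0 higher. Of all 13071 measured genes, 4.26% were called lower and 3.75% higher in that comparison, and of the 8272 bright genes, to which all 9 belong, 4.0% and 1.37%. Against NO, 2 of 9 were called lower, AP3S1 and HPS5, and 0 higher, where 5.48% of all measured genes were called lower and 3.67% higher, and 4.29% and 2.15% of bright genes. AP3S1 was called against both controls, as were 3.22% of measured and 3.41% of bright genes in the lower direction. Between siCTR and NO, 0 of 9 were called, against 3.51% of all measured genes and 0.0604% of bright genes in either direction. The siPIR comparisons are those in which AP3S1 was chosen, and they share the siPIR arrays, so the counts describe the genes and no more.

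Leaving out AP3S1, which was chosen for its fall, both siPIR arrays lay below all 4 control arrays in 6 of 8 genes (AP3D1, AP3B1, AP3M1, HPS5, HPS3 and HPS4), whatever the size, and in 1, AP3M2, above them. The same held for 23.2% of measured genes below and 28.4% above. Among the 8272 bright genes, to which all of these belong, the shares were larger, with 2406 below and 2811 above. Counted by probe set, with that of AP3S1, 14 of 25 lay below all control arrays, 1 above and 10 overlapped, where 21.5% of measured probe sets lay below and 24.9% above. The 14 include several probe sets of the same gene, which are not separate members. They also include the dimmest of HPS3, measured through NO alone, with siPIR and siCTR means of 36.9 and 51.45, so the filter favoured its place. The median difference of the 9 genes was -0.17 from siCTR and -0.27 from NO, beside 0.05 and 0.03 over all measured genes. Without AP3S1 it was -0.16 and -0.23, and with all 9 genes but without the first siPIR array it was -0.27 and -0.25. Without probe sets of the suffixes _x_at and _s_at, which drops AP3D1 and AP3B1, the median of the remaining 7 was -0.36 from siCTR. Among bright genes, 4.85% had a difference from siCTR as low as AP3D1 or lower, 5.46% as low as HPS5 and 13.9% as low as AP3M1, and 15.4% had one as high as AP3M2 or higher. Against NO the shares were 7.88% for AP3D1, 3.11% for HPS5, 21.5% for AP3M1 and 15.6% for AP3M2, so HPS5 and not AP3D1 lay lower there.

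**Figure D3:**
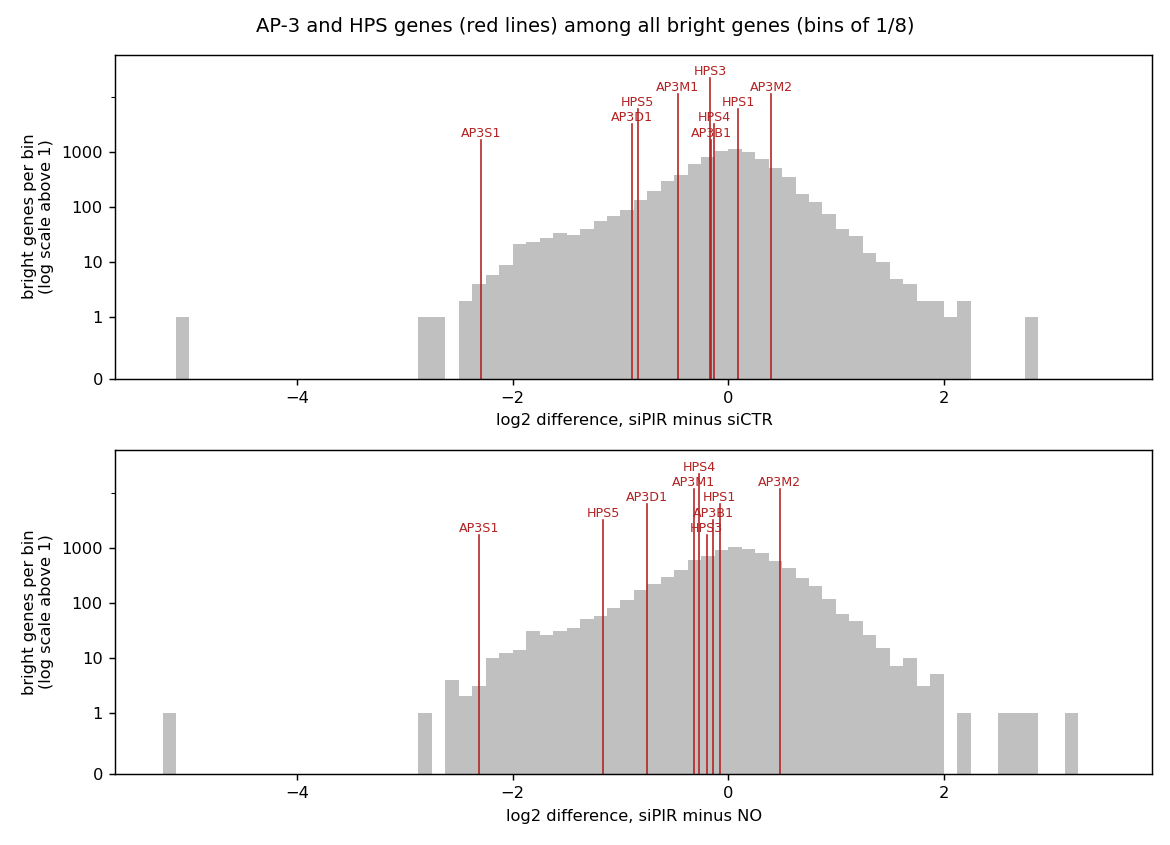
Number of bright genes (y axis, logarithmic above 1) by log2 difference of the siPIR pool from siCTR (upper panel) and from NO (lower panel), in bins of equal width, with the 9 measured AP-3 and HPS genes as red lines. AP3S1 lies in the far lower tail, HPS5 and AP3D1 on the lower shoulder, and the other genes in the body of the distribution.

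The related coat complexes, tethers, transport genes and cargo were examined with lists of 5 to 14 genes. Since the shares of all measured genes called against siCTR (4.26% lower and 3.75% higher) and NO (5.48% and 3.67%) amount to about 1 gene or fewer in lists of this size, the counts of 0 below are near the background and describe nothing particular to the lists. AP-1, which sorts between the trans-Golgi network and endosomes and also delivers melanosome cargo, had 7 of 8 subunits measured, 0 called in either direction against either control, and medians of 0.36 from siCTR and 0.28 from NO. Its gamma-2 chain gene AP1G2 differed by 0.96 and 0.59, with 1331 and 875 in siPIR against 880 and 578.5 in NO, so these arrays overlapped. Its sigma chain genes were split, with AP1S1 at 0.53 and 0.72, AP1S2 at 0.02 and 0.06, and AP1S3 at -0.55 and -0.71. AP-2, the clathrin adaptor of the plasma membrane, had all 5 subunits measured and 0 called, with medians of 0.36 and 0.48. Its alpha chain gene AP2A1 was the furthest from the controls, at 0.71 and 0.88, although its 4 measured probe sets ran from 0.35 to 1.64 against siCTR and from -0.33 to 0.94 against NO. Its sigma chain gene AP2S1 differed by -0.16 and 0.12. Of AP-4 and AP-5, 7 of 8 subunits were measured and 0 called, with medians of 0.08 and 0.15. The AP-4 sigma chain gene AP4S1 differed by -0.97 and -0.70, with 147 and 255 signal units in siPIR, 418 and 353 in siCTR and 453 and 222 in NO, so its siPIR and NO arrays overlapped. The 4 measured probe sets of AP4S1 ran from -0.97 to 0.31 against siCTR and from -0.70 to -0.05 against NO, so its direction against siCTR depends on the probe set.

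BLOC-1, which tethers AP-3 and BLOC-2 to endosomal tubules, was listed together with HPS6. Of these 9 genes, 8 were measured and 0 called against either control, with medians of 0.04 and 0.11. BLOC1S2 differed by 0.45 and 0.70, and DTNBP1, mutated in another form of Hermansky-Pudlak syndrome, by -0.29 and -0.34. All 8 genes of the HOPS and related tethers, which bring AP-3 vesicles to their target membrane, were measured and 0 were called, with medians of 0.26 and 0.17. VIPAS39 was the furthest, at 0.41 from each control, and VPS41, a partner of AP-3, stood at -0.02 from siCTR. All 14 genes of melanosome transport were measured and 0 were called, with medians of 0.01 and -0.03. SYTL2, an effector of RAB27A, differed by 0.73 and 0.48, VAMP7, a fusion protein that AP-3 sorts, by -0.43 and -0.51, and RAB38, which BLOC-3 activates, by -0.26 and -0.11.

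The cargo of AP-3 and BLOC carriers was also listed. All 10 genes were measured, 0 were called against siCTR and 1 was called lower against NO, with medians of 0.13 and 0.18. That gene was OCA2, a melanosomal transporter, at 37.1 and 27.5 in siPIR, 62.2 and 48.4 in siCTR, and 93.7 and 96.2 in NO, differences of -0.69 and -1.42, with siCTR already -0.73 from NO. OCA2 counted as measured through NO alone, its siPIR and siCTR means of 32.3 and 55.3 being under the 70.2 limit, so a call lower against NO was favoured by the filter. TYR differed by 0.02 and 0.13, TYRP1, a second melanin enzyme, by 0.40 and 0.22, and the copper pump ATP7A by 0.77 and 0.51. The 3 measured probe sets of TYR ran from 0.02 to 0.18 against siCTR and from -0.46 to 0.13 against NO. By their brightest probe sets, LAMP1 differed by -0.31 and -0.11 and LAMP2 by 0.30 and 0.34. The 4 measured probe sets of LAMP1 ran from -1.03 to -0.04 against siCTR and from -1.3 to -0.11 against NO. Those of LAMP2 ran from -0.57 to 0.30 and from -0.21 to 0.34.

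**Figure D4:**
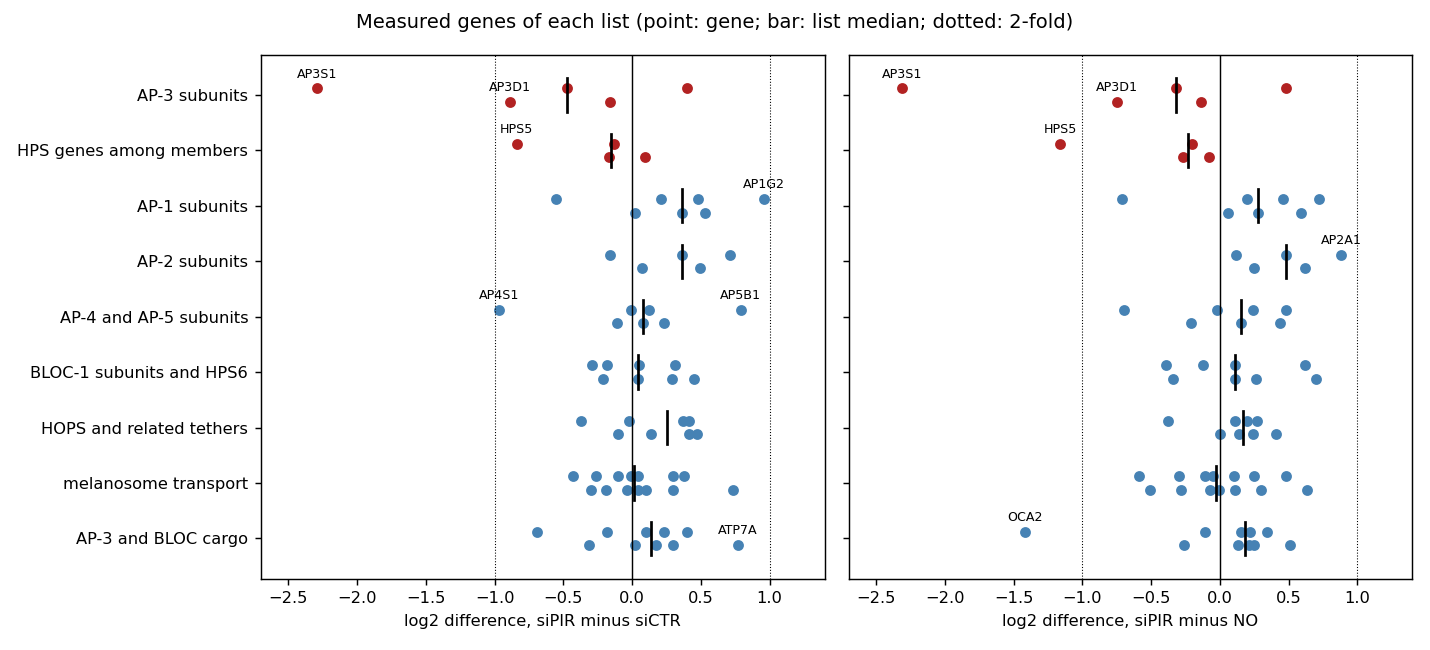
Log2 difference of siPIR from siCTR (left) and from NO (right) for each measured gene of the lists; points are genes (red for the AP-3 subunits and HPS genes, blue for others), bars list medians and dotted lines 2-fold. The AP-3 median lies at -0.47 and -0.32 and those of AP-1 and AP-2 between 0.28 and 0.48. The AP-3 median includes AP3S1, which was chosen for its fall, and leaves out AP3S2. Its other points run from -0.89 to 0.40 on the left and from -0.75 to 0.48 on the right.

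The genes most like AP3S1 were sought by the Euclidean distance between log2 profiles over the 3 pools, each centred on its own mean, among the 8271 other bright genes. The nearest was UXS1, an enzyme that makes UDP-xylose, at a distance of 0.061, with differences of -2.29 and -2.38. It was followed by the spindle checkpoint kinase TTK (0.085), RAVER2 (0.088), COMMD1, a regulator of copper handling (0.097), and the galactosyltransferase B4GALT4 (0.116). Of the AP-3 and HPS genes, the nearest was HPS5, at 1.09, and then AP3D1, at 1.22, while AP3M2 was the furthest, at 2.24. The likeness rests on 3 pools, is mostly a likeness in the size of the fall, and was chosen from the same values as AP3S1 itself.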

How the data were processed

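Total RNA of WM-266.4 cells was measured on 6 Affymetrix HG-U133 Plus 2 arrays, 2 for each of 3 RNA pools. The authors deposited 1 intensity for each probe set and array, linear and not logged, from GCOS, the Affymetrix software, per the submitters' processing notes. How GCOS was set is not given in the sources used here. The mean of each array, leaving out the lowest and highest 2%, was 500.1, as global scaling leaves it, which would hide a change in the RNA content of cells. All 6 columns were matched, and 0 were left unmatched.

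Differences were computed on log2(value + 5.4), where 5.4 is the 10th percentile over the arrays, and those of dim genes are understated by it. The platform annotation names 1 gene for 41097 probe sets and several for 1801, and does not list 11777. Symbols were updated through Entrez identifiers to RefSeq (GRCh38.p14), where 99.9% matched and 0 changed. No test was made and no p-value is given, since each group is 1 pool and the genes and lists were chosen with earlier results of these data known. Precision is limited by the number of arrays. The rule for named genes took PIR, all 10 AP-3 and HPS genes with every probe set, the called genes of each further list (or the gene furthest from the controls) and the 5 bright genes most like AP3S1. Other list members were named after their values were seen, for their place in the pathway or the spread of their probe sets. The calling step was tested on simulated bright genes only, with changes well beyond 2-fold and the noise of duplicate arrays. Dim genes, changes near 2-fold and variation between pools were not covered. Alternatives were another pseudocount, scaling, probe set choice and filter, and each array left out. Computation used Python 3.11.15, numpy 2.4.6 and pandas 2.3.3.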

Additional observations from a re-analysis of the deposited data

How the results depend on the processing

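No paired analysis was possible because the results come from no test and the replicate numbers name repeat hybridisations of a single target. The counts of called AP-3 and HPS genes were 1 against siCTR, 2 against NO, 1 against both controls and 0 between the controls under every alternative run, and AP3S1 kept its direction with differences of -2.37 to -2.22 from siCTR and -2.39 to -2.24 from NO. With an array left out, the median of the genes ran from -0.27 to -0.16 against siCTR and from -0.31 to -0.23 against NO. Without _x_at and _s_at probe sets it was -0.36 against siCTR, with 7 genes in place of 9. Under the same alternative HPS1 stood at -0.13 and 0.27, HPS3 at 0.08 and 0.19, and HPS4 at -0.36 and -0.62 from siCTR and NO, so the directions of HPS1 and HPS3 depend on the probe set. AP3S2, added as a 10th gene through its brightest shared probe set after the data were seen, differed by 0.12 and 0.05 and changed no count. Quantile normalization and scaling to a common median moved the median of all measured genes to 0.01 to 0.06.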
